A study of Mus musculus with 12 samples.

Results

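The comparison described here sets 3 libraries from mouse pups that carried only the CaMKIIα-tTA driver (CAMK) against 3 libraries from wild-type pups (WT), 6 of the 12 hippocampal libraries of the study. The libraries were chosen by their group labels. Expression is given as FPKM, the fragments counted for each kilobase of a transcript relative to all those of the library. A gene was tested if 3 or more of these 6 libraries reached an FPKM of 1, which 15760 of the 29454 genes in the deposited table did. The other 6 libraries (CX3CL1-ct) came from pups with the same driver and a Tg-CX3CL1-ct transgene. They did not enter the comparison, and their levels are given beside it because they carry the driver too. CAMK pups carried CaMKIIα-tTA, bought from the Jackson Laboratory, without the Tg-CX3CL1-ct transgene, and WT pups carried neither. The pups were littermates of strain C57/BL6, and the Tg-CX3CL1-ct line had been crossed to C57BL/6J for 6 generations. The labels do not name the CaMKIIα-tTA line or founder. The age is postnatal day 4 by the sample labels and postnatal day 0 by the design text of the series.

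The tetracycline transactivator (tTA) is a bacterial repressor joined to a viral activation domain. Under the promoter of Camk2a, the gene for the α subunit of calcium/calmodulin-dependent kinase II, it is made mainly in excitatory neurons of the forebrain, where it switches on genes placed behind tet operator sequences unless doxycycline is given. A driver line without a target transgene serves as the control for what the transactivator, the inserted DNA and the strain background around it bring with them. The hippocampus of the newborn mouse still adds neurons to the dentate gyrus, and its glutamatergic synapses are being formed.

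The 6 libraries were of similar depth, estimated at 12200000 to 14100000 fragments each from the value of 1 fragment in short single-exon genes. Between 15318 and 15856 genes reached 1 FPKM. The labels give no sex and do not say that a library is 1 animal. Transcripts of Xist, the RNA of the inactive X chromosome, stood at 0.169, 107 and 65.5 FPKM in CAMK replicates 1, 2 and 3 and at 6.38, 113 and 74.1 in WT replicates 1, 2 and 3. The Y-linked helicase gene Ddx3y stood at 18.1, 0.743 and 7.34 FPKM in CAMK and at 13.2, 1.32 and 7.10 in WT. Replicate 3 of both groups and WT replicate 1 thus held transcripts of both kinds. The numbers ordered the libraries in the same way in both groups. Each p-value therefore rests on the spread among libraries, which may be technical, and a bulk library cannot tell fewer cells of a type from less RNA per cell.

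The driver's own gene and the genes of the study were measured first. Camk2a stood at 27.4, 22.8 and 23.6 FPKM in CAMK and at 39.1, 30.4 and 34.96 in WT. All 3 CAMK libraries lay under all 3 WT libraries. The log2 difference was -0.48 (exact two-sided permutation test, p = 0.1, the smallest possible with 3 against 3 libraries). The adjusted p was 0.159 over all genes (limma, Benjamini-Hochberg) and 0.0328 with the replicate number entered as a block. The value is of the endogenous gene as annotated, and the table has no row for tTA. Cx3cl1, the membrane-bound chemokine of neurons, stood at 41.6, 34.7 and 38.5 FPKM in CAMK and at 42.4, 38.6 and 40.8 in WT. Its groups overlapped (log2 difference -0.09, exact p = 0.4). Cx3cr1, the microglial receptor of Cx3cl1, stood at 4.45, 6.41 and 6.04 FPKM in CAMK and at 5.63, 4.30 and 5.71 in WT. Its groups overlapped as well (log2 difference 0.09, exact p = 0.5, and -0.02 without WT replicate 2).

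Of the 15760 genes tested, 66 passed an adjusted p of 0.05 (limma), 29 higher and 37 lower in CAMK. These were 0.419% of the genes, 0.184% higher and 0.235% lower. The 3 CAMK and 3 WT libraries did not overlap for any of the 66, as for 18.1% of all genes tested. Protein-coding genes made up 46 of them, and 20 were small RNA genes, pseudogenes or predicted genes. These classes overlap, as predicted genes can be protein-coding, and some of the 66 are in neither. At an unadjusted p under 0.05 there were 1897 genes, or 12%. The median log2 fold change of all genes tested was 0.00. In the fit with a block for the replicate number, 285 genes passed (1.81%), 188 higher (1.19%) and 97 lower (0.615%), and all 66 were among them. The count without 1 library ranged from 20 without CAMK replicate 3 to 113 without WT replicate 1. It was 44 without CAMK replicate 1, 28 without CAMK replicate 2, 39 without WT replicate 2 and 24 without WT replicate 3.

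**Figure D1:**
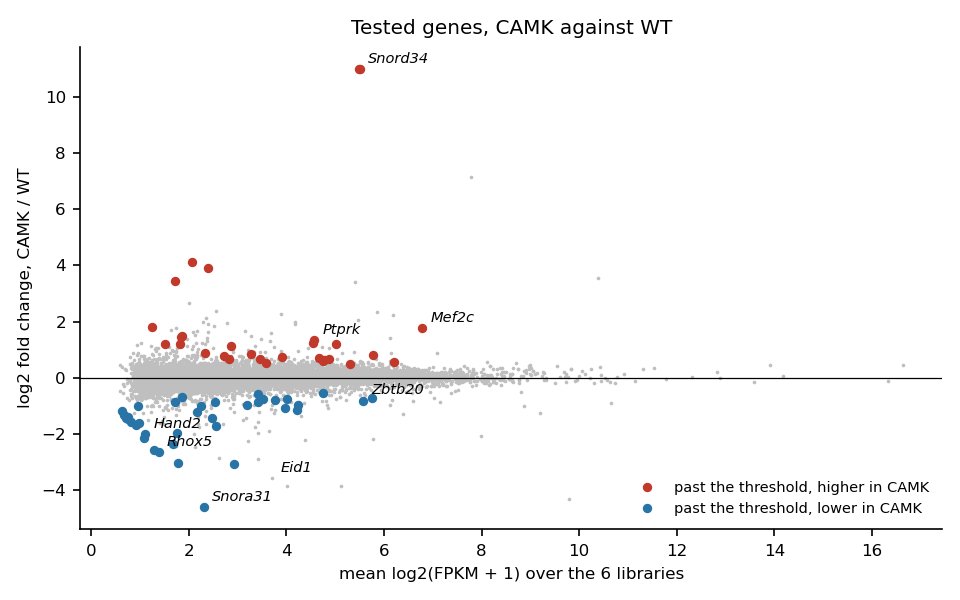
Log2 fold change of CAMK over WT (y axis) against mean log2(FPKM + 1) over the 6 libraries (x axis) for the 15760 genes tested, with genes past an adjusted p of 0.05 in colour. The 29 higher and 37 lower genes include the small RNA genes Snord34 at the top and Snora31 at the bottom, each listed at 0 in a whole group, and Eid1 is named although it did not pass.

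A neighbourhood on chromosome 12 was lower in every library with the driver. A CaMKIIα-tTA line has been reported to carry its insertion among genes of this neighbourhood, and the labels do not say whether the line used was that one. Coordinates are of build mm10 from GENCODE M21. Esyt2, whose protein tethers the endoplasmic reticulum to the plasma membrane (116281196 to 116391050, plus strand), stood at 9.29, 9.15 and 9.76 FPKM in CAMK and at 16.5, 17.9 and 16.8 in WT. The CAMK mean was 55.1% of the WT mean, and the gene fell with a log2 difference of -0.80 (SE 0.07, limma adjusted p = 0.00709). The groups stood far apart, and the 6 CX3CL1-ct libraries lay with CAMK, at 8.59 to 10.9 FPKM. Without CAMK replicate 3 or WT replicate 3 the adjusted p of Esyt2 was 0.0659 or 0.0654.

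Ptprn2, a phosphatase-like protein of dense-core vesicles (116485720 to 117276849), stood at 21.8, 19.7 and 22.3 FPKM in CAMK and at 33.3, 30.4 and 32.0 in WT. It fell with a log2 difference of -0.56 (SE 0.08, limma adjusted p = 0.0424). The groups did not overlap, but the adjusted p was over 0.05 when any 1 of the 6 libraries was left out, from 0.0607 to 0.232. Wdr60, a subunit of the dynein that moves cargo in cilia (116206262 to 116263022, minus strand), stood at 2.17, 2.37 and 2.18 FPKM in CAMK and at 3.85, 5.20 and 5.51 in WT. Its log2 difference was -0.84, with a limma adjusted p of 0.0598, of 0.0469 with the replicate block and of 0.0196 without WT replicate 1. Ncapg2, a subunit of condensin II (116405402 to 116463731), stood at 1.15, 1.75 and 1.24 FPKM in CAMK and at 2.42, 3.70 and 3.30 in WT. Its log2 difference was -0.79 (limma adjusted p = 0.120, and 0.0475 with the block). For all 4 genes each of the 6 CX3CL1-ct libraries was nearer to the CAMK mean than to the WT mean.

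The genes next to this stretch did not share the lower levels. The pseudogene Gm17807, which lies inside Ptprn2, had a log2 difference of -0.59 (limma adjusted p = 0.107), while Zfp386 on one side and Rapgef5 on the other had 0.04 each. Within 5 Mb on both sides 52 other genes were tested. None passed the threshold, and 1 passed with the replicate block, as 1.81% of all genes did. Without overlap 5 were lower and 4 higher, where 8.76% and 9.35% of all genes were. The lowest of them was Inf2, a formin gene (112588784 to 112615557), at 2.79, 2.06 and 2.13 FPKM in CAMK and at 3.84, 5.67 and 4.78 in WT. Its log2 difference of -0.79 was as large as that of Esyt2 but did not pass (limma adjusted p = 0.104, and 0.0927 with the block), and CX3CL1-ct libraries stood at 2.57 to 3.41 FPKM. The median of the 52 was -0.02, against a median of -0.79 over the 4 listed genes. Of the other listed genes, Vipr2 stayed under the filter, D430020J02Rik was not matched, and Dnajb6 and Ube3c, which lie on chromosome 5, had log2 differences of 0.07 and 0.04.

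**Figure D2:**
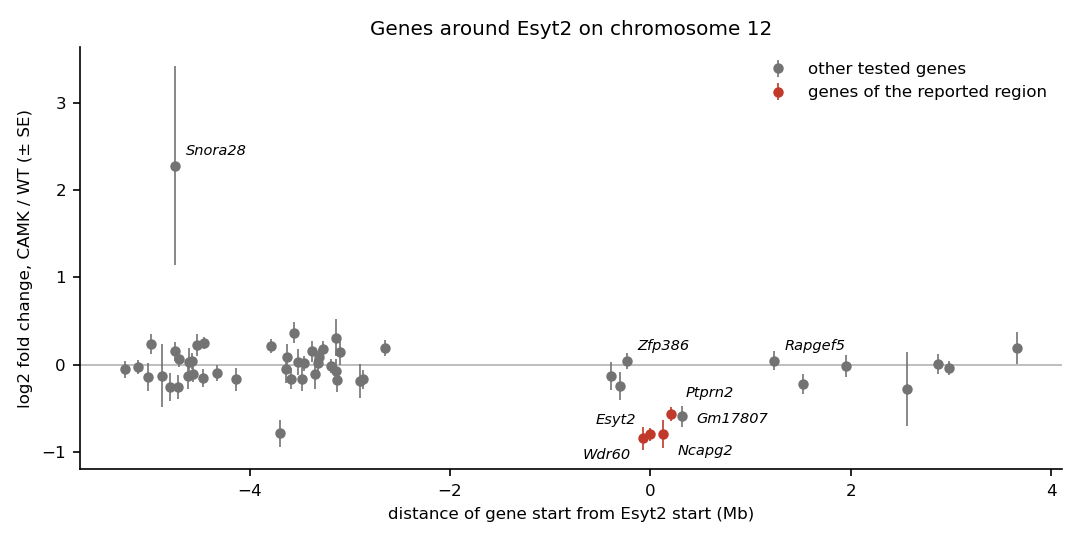
Log2 fold change of CAMK over WT with its standard error (y axis) for the genes tested on chromosome 12, by the distance of the gene's start from that of Esyt2 in Mb (x axis). Wdr60, Esyt2, Ncapg2 and Ptprn2 lie between -0.84 and -0.56, and the genes on both sides scatter around a median of -0.02.

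Of the protein-coding genes, Mef2c and Rorb, which are also on the neocortex list, were among those that rose. Mef2c, a transcription factor of neuronal differentiation and synapse number, stood at 272, 153 and 200 FPKM in CAMK and at 74.2, 44.5 and 62.0 in WT. The lowest CAMK library was above the highest WT library, and the log2 difference was 1.76 (SE 0.25, limma adjusted p = 0.0438). It passed in the fit without WT replicate 1 and in none of the other 5 fits without 1 library (adjusted p up to 0.218). In CX3CL1-ct it ranged from 68.6 to 324 FPKM with a median of 168, so that the libraries with both transgenes spanned both groups.

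Rorb, a nuclear receptor of cortical layer 4 neurons, stood at 10.4, 9.29 and 9.94 FPKM in CAMK and at 4.08, 3.78 and 4.05 in WT. Both groups were tight, the log2 difference was 1.13 (SE 0.08, limma adjusted p = 0.00289), and the call held without any 1 of the 6 libraries. CX3CL1-ct libraries stood at 4.55 to 12.1 FPKM, and only 2 of the 6 were nearer to CAMK. Necab1, a calcium-binding protein of neurons, stood at 55.3, 41.4 and 49.5 FPKM in CAMK and at 20.8, 19.6 and 21.3 in WT. Its log2 difference was 1.20 (limma adjusted p = 0.00712, and 0.0659 without CAMK replicate 3 and 0.0520 without WT replicate 3).

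Ptprk, Kitl and Ptger3 were among the 12 largest rises too. Ptprk, a receptor tyrosine phosphatase of cell contacts, stood at 40.3, 34.2 and 36.3 FPKM in CAMK and at 16.6, 12.0 and 13.8 in WT, a log2 difference of 1.33 (limma adjusted p = 0.00712). Kitl, the ligand of the receptor Kit, stood at 26.4, 40.9 and 37.8 FPKM in CAMK and at 14.0, 13.4 and 15.3 in WT, a log2 difference of 1.22 (adjusted p = 0.0331). Neither gene's groups overlapped. Without CAMK replicate 3 or WT replicate 3 the adjusted p of Ptprk was 0.0659 or 0.0606, and that of Kitl was under 0.05 only without CAMK replicate 1 among the 6 fits without 1 library (up to 0.194). Ptger3, the EP3 receptor of prostaglandin E2, stood at 5.67, 4.34 and 5.08 FPKM in CAMK and at 1.11, 1.37 and 1.06 in WT. Its log2 difference was 1.47 (adjusted p = 0.00495, and 0.0604 without CAMK replicate 3), and 5 of the 6 CX3CL1-ct libraries were nearer to CAMK.

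The largest log2 difference among protein-coding genes that rose was that of Hspb3, a small heat shock protein, at 1.80. It stood at 3.90, 3.46 and 3.01 FPKM in CAMK and at 0.595, 0.301 and 0 in WT (limma adjusted p = 0.0135, and 0.0587 to 0.0791 without any 1 CAMK library or WT replicate 2). Hspb3 passed the filter on low values only because all 3 CAMK libraries reached 1 FPKM. Its groups therefore had to stand apart, and its separation is no support. The other 5 of the 12 largest rises were smaller than 1 on the log2 scale. They were Fhod3, a formin (0.86), Akap7, an anchor of protein kinase A (0.80), Cdh6, a cadherin (0.78), Lhfp, a protein with 4 membrane spans (0.74), and Ackr1, a decoy receptor for chemokines (0.68). The limma adjusted p of these 5 lay between 0.0114 and 0.0376. Without CAMK replicate 3 it lay between 0.114 (Lhfp) and 0.250 (Cdh6), and without WT replicate 3 between 0.0724 (Lhfp) and 0.210 (Fhod3). All 5 were also lost without CAMK replicate 2, all but Lhfp without CAMK replicate 1, and Fhod3, Cdh6 and Ackr1 without WT replicate 2. Ackr1 shares exons with Cadm3 on the same strand, so its value is uncertain.

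**Figure D3:**
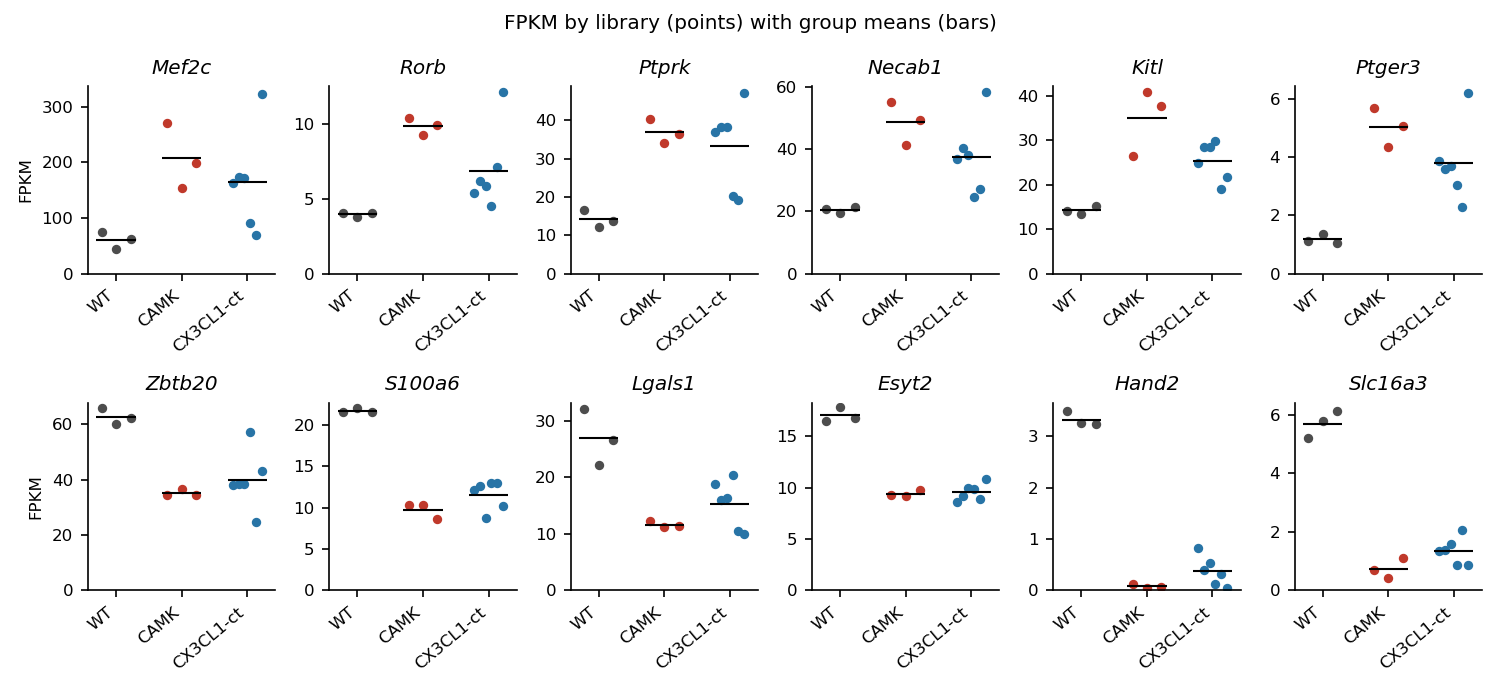
FPKM (y axis, from 0) of 12 genes past the threshold in the 3 WT, 3 CAMK and 6 CX3CL1-ct libraries (x axis, 1 point a library), where a bar marks the mean of the group. Mef2c, Rorb, Ptprk, Necab1, Kitl and Ptger3 are higher and Zbtb20, S100a6, Lgals1, Esyt2, Hand2 and Slc16a3 lower in all 3 CAMK than in all 3 WT libraries. Hand2 passed the filter on low values only through its WT libraries, so its groups had to stand apart.

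Among the genes that fell, a set was present at a few FPKM in WT and close to 0 in CAMK. Of the 37 lower genes, 16 stood under 1 FPKM in all 3 CAMK libraries. Such genes passed the filter on low values only because all 3 WT libraries reached 1 FPKM. The filter itself chose genes whose groups had to stand apart, so neither their number nor their separation is support. For 14 of these at least 5 of the 6 CX3CL1-ct libraries were nearer to the CAMK mean. The share over all genes tested was not counted, so this count is no support. Hand2, a transcription factor of heart, limb and sympathetic neurons (chromosome 8), stood at 0.126, 0.0308 and 0.0630 FPKM in CAMK and at 3.49, 3.25 and 3.24 in WT. Its log2 difference was -2.01 (limma adjusted p = 0.000872). CX3CL1-ct libraries stood at 0.0435 to 0.821 FPKM. AV026068 and 5033428I22Rik, transcripts next to Hand2 (57281117 to 57354580), passed the threshold as lower too. The exons of AV026068 overlap Hand2 on the opposite strand, and Hand2 also overlaps Hand2os1, so with the use of strand unknown these may not be separate falls. AV026068 had a log2 difference of -1.61 (adjusted p = 0.0178, and 0.0670 to 0.0943 without any 1 CAMK library or WT replicate 3).

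Prph, the intermediate filament peripherin of neurons with peripheral axons, stood at 3.70, 1.76 and 2.02 FPKM in CAMK and at 9.27, 7.23 and 8.13 in WT (log2 difference -1.43, limma adjusted p = 0.0499). The call of Prph held only without CAMK replicate 1 among the 6 fits without 1 library (adjusted p up to 0.270). Prph was lower in every CAMK library than in any WT library, and all 6 CX3CL1-ct libraries were nearer to CAMK. Rhox5, an X-linked homeobox gene, stood at 0, 0 and 0.118 FPKM in CAMK and at 5.53, 6.96 and 4.51 in WT (log2 difference -2.67, adjusted p = 0.00105).

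Baiap2l1, which shapes membrane and actin, stood at 0.390, 0.328 and 0.547 FPKM in CAMK and at 6.11, 6.59 and 6.03 in WT, a log2 difference of -2.35 (limma adjusted p = 0.000261). Its exons overlap genes on the opposite strand, and no source used here says if the counting was stranded. Slc16a3, the lactate exporter MCT4, stood at 0.669, 0.402 and 1.10 FPKM in CAMK and at 5.20, 5.79 and 6.14 in WT (log2 difference -1.98, adjusted p = 0.00469). Dkk1, a secreted inhibitor of Wnt signalling, stood at 0.0384, 0 and 0.146 FPKM in CAMK and at 2.58, 2.72 and 1.93 in WT (log2 difference -1.68, adjusted p = 0.00552). Baiap2l1 and Dkk1, unlike Slc16a3, stood under 1 FPKM in every CAMK library.

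Other genes fell from levels that remained well above 0. S100a6, a calcium-binding protein of astrocytes and stem cells, stood at 10.3, 10.3 and 8.64 FPKM in CAMK and at 21.6, 22.1 and 21.6 in WT, a log2 difference of -1.09 (limma adjusted p = 0.00433). Lgals1, the lectin galectin-1, stood at 12.2, 11.2 and 11.3 FPKM in CAMK and at 32.1, 22.2 and 26.7 in WT, a log2 difference of -1.14 (adjusted p = 0.0187, and 0.0651 to 0.133 without any 1 CAMK library or WT replicate 3). For S100a6 all 6 CX3CL1-ct libraries were nearer to CAMK, and for Lgals1 4 of 6. Sdpr, a protein of caveolae, stood at 2.03, 2.37 and 2.68 FPKM in CAMK and at 5.74, 6.13 and 5.32 in WT (adjusted p = 0.0155, and 0.0659 to 0.0884 without CAMK replicate 2 or 3 or WT replicate 2 or 3). Htr3a, a subunit of the serotonin-gated ion channel, had a log2 difference of -1.23 (adjusted p = 0.00709, and 0.0520 without WT replicate 3).

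Zbtb20, a transcription factor that specifies hippocampal CA1 neurons, was the most abundant of the genes named by rule that passed the threshold as lower. It stood at 34.3, 36.4 and 34.4 FPKM in CAMK and at 65.8, 60.0 and 62.3 in WT, so that CAMK libraries held 55.9% of the WT mean. The log2 difference was -0.82 (SE 0.07, limma adjusted p = 0.00495), and the adjusted p was 0.0659 without CAMK replicate 3 and 0.0507 without WT replicate 3. CX3CL1-ct libraries ranged from 24.7 to 57.2 FPKM, 5 of 6 nearer to CAMK. Ifitm3, an interferon-induced membrane protein, stood at 6.32, 5.45 and 4.86 FPKM in CAMK and at 11.7, 11.7 and 11.9 in WT (log2 difference -0.97, adjusted p = 0.0122, and 0.0600 to 0.0943 without CAMK replicate 2 or 3 or WT replicate 2 or 3).

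Of the 66 genes, 8 were listed at 0 in a whole group, which are all tested genes of that kind. The filter let such a gene in only where all 3 libraries of the other group reached 1 FPKM, so that its groups had to stand apart. A listed 0 can be a failed estimate in a table without counts, and no fold is given for them. In WT these were Snord34, Snord49a, Gm24729 and Mir8091, and in CAMK Snora31, Eno1b, Hist1h2al and Gm13096. Snord34 was listed at 2214, 1997 and 1925 FPKM in CAMK and at 0 in all 3 WT and all 6 CX3CL1-ct libraries. Snord49a was listed at 1449, 2547 and 2378 FPKM in CAMK and at 0 in WT, while CX3CL1-ct libraries ranged from 0 to 3453. Gm24729 stood at 8.87 to 11.0 FPKM in CAMK and at 0 in WT and CX3CL1-ct. Snora31 stood at 31.5, 29.5 and 14.0 FPKM in WT and at 0 in CAMK, and CX3CL1-ct libraries at 0 to 14.2. For Snord34 and Gm24729 the CX3CL1-ct libraries, which also carry the driver, were thus with WT and not with CAMK.

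Snord34 and Snord49a are small nucleolar RNAs of the box C/D class, which guide the methylation of ribosomal RNA. They are shown because their mean FPKM in CAMK were the highest among the 66 genes while both were listed at 0 in WT. Capitals mark the core of the C box (TGATG), searched in the first 20 bases, and the D box (CTGA), searched in the last 20 bases, on the strand given only. Both stretches are found in 36 of 48 (75%) of the GENCODE M21 small nucleolar RNA transcripts of 70 to 72 nt. Snord34 spans chr7:45126601-45126670 on the minus strand and Snord49a spans chr11:62603450-62603521 on the plus strand (mm10).
Snord34: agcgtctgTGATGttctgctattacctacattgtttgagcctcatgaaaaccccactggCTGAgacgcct
Snord49a: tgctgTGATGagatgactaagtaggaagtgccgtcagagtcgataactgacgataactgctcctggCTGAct

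Gene lists for cell types, regions and pathways were described by counts and medians, without a test. In all genes tested 51% had a log2 fold change above 0. All CAMK libraries lay above all WT libraries for 9.35% of all genes tested, and under them for 8.76%. Counts without overlap are to be read beside these shares. Counts called with the replicate block are to be read beside 1.19% of all genes called higher with it and 0.615% called lower. Of 39 lists with a tested member, 27 had a median below 0 and 6 had a member past the threshold.

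Genes of cell division stood slightly lower in CAMK. Of 30 members, 29 had a log2 fold change below 0, with a median of -0.32, against 0.00 over all genes tested. For 22 of the 30 all CAMK libraries lay under all WT libraries, as they did for 8.76% of all genes, and for none did they lie above. The median stayed between -0.35 and -0.30 without any 1 of the 6 libraries. No member passed the threshold, and 2 passed with the replicate block. The mean log2 level of the members was 2.27 to 2.396 in CAMK and 2.56 to 2.69 in WT. In the CX3CL1-ct libraries it was 2.401 to 2.60 (median 2.52), above every CAMK library. Birc5, the mitotic protein survivin, stood at 3.54, 3.03 and 3.47 FPKM in CAMK and at 6.13, 5.33 and 5.78 in WT (log2 difference -0.63, limma adjusted p = 0.0568, and 0.0420 with the block). Cdk1, the kinase that starts mitosis, stood at 5.09 ± 0.586 FPKM (SD, n = 3) in CAMK and 8.56 ± 1.24 (n = 3) in WT (limma adjusted p = 0.107). Mki67, a nuclear protein of dividing cells, stood at 5.68, 6.48 and 6.05 FPKM in CAMK and at 7.01, 9.71 and 9.19 in WT (log2 difference -0.44, limma adjusted p = 0.231).

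Progenitor genes gave a mixed picture. Of 16 tested genes of intermediate progenitors and neuroblasts, 11 were below 0 (median -0.20). Without overlap 5 were lower and 3 higher, against 8.76% and 9.35% of all genes. Of the 16 genes, 2 were called lower. With the replicate block Stmn1 and Tubb3, genes of young neurons' microtubules, were called higher as well (block adjusted p = 0.0244 and 0.0461, limma). Eomes, the transcription factor Tbr2 of intermediate progenitors, stood at 1.36, 1.41 and 1.53 FPKM in CAMK and at 4.05, 3.21 and 3.29 in WT (log2 difference -0.89, limma adjusted p = 0.0331). Igfbpl1, a secreted protein of young neurons, stood at 11.8, 10.7 and 11.6 FPKM in CAMK and at 22.4, 18.7 and 19.0 in WT (log2 difference -0.77, adjusted p = 0.0255). Each of these calls held only without WT replicate 1 among the 6 fits without 1 library (adjusted p up to 0.183 and 0.164). CX3CL1-ct libraries did not lie with CAMK for either gene: Eomes ranged from 2.12 to 11.6 FPKM and Igfbpl1 from 9.87 to 22.2, with 1 of 6 nearer to CAMK for each. The neural stem cell and radial glia list had 16 of 20 members below 0 (median -0.12, 6 lower without overlap), and the astrocyte list 16 of 19 (median -0.17, 6 lower and 1 higher without overlap, and -0.06 without WT replicate 1). Neither list had a member past the threshold.

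The tissue labelled hippocampus held markers of its own fields in every library. Prox1, the transcription factor of dentate granule neurons, stood at 7.32, 10.5 and 9.41 FPKM in CAMK and at 14.9, 10.6 and 12.7 in WT. The dentate list had 7 of 11 members below 0 with a median of -0.25 (-0.13 without WT replicate 2) and none past the threshold. The CA field list had 10 of 15 below 0 with a median of -0.30 (-0.18 without WT replicate 1 and -0.20 without WT replicate 3). Zbtb20 was its 1 called member, lower in CAMK. Without overlap 7 of the CA field members were lower and 1 higher, against 8.76% and 9.35% of all genes. With the replicate block 2 were called lower and 2 higher. Nr3c2, the mineralocorticoid receptor of CA neurons, stood at 14.7, 12.3 and 12.6 FPKM in CAMK and at 29.1, 20.8 and 26.4 in WT (log2 difference -0.89, limma adjusted p = 0.0547, and 0.0233 with the block).

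Neocortical markers were present as well and split by gene. Of 17 tested, 11 were above 0 (median 0.13). Without overlap 6 were higher and 3 lower, against 9.35% and 8.76% of all genes. The median was 0.06 and 0.07 without CAMK replicate 1 and 3, and 0.20 and 0.25 without CAMK replicate 2 and WT replicate 1. Rorb and Mef2c, described above, were its called members, and with the replicate block 6 were called higher and 1 lower. Cux2, a transcription factor of upper-layer neurons, stood at 21.1, 10.1 and 13.3 FPKM in CAMK and at 8.10, 4.80 and 5.49 in WT (log2 difference 1.12, limma adjusted p = 0.160, and 0.0194 with the block). Crym, a thyroid-hormone-binding protein of deep-layer neurons, stood lower, at 125, 87.3 and 105 FPKM against 264, 144 and 180 (log2 difference -0.86, adjusted p = 0.200, and 0.0246 with the block). The part of dissection in these differences was not tested.

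Markers of 3 neighbouring tissues differed between libraries more than between the groups. All 16 striatal genes tested were below 0, with a median of -0.76, but the groups overlapped for each of them. Penk, the enkephalin precursor of striatal neurons, stood at 2.43, 5.43 and 5.09 FPKM in CAMK and at 2.52, 35.2 and 23.8 in WT. The list's mean log2 level was as low in WT replicate 1 (2.11) as in CAMK (2.31 to 2.76), and it was 4.36 and 3.93 in WT replicates 2 and 3. The median was -1.48 without WT replicate 1 and -0.36 without WT replicate 2.

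All 10 choroid plexus genes tested were below 0 too, with a median of -0.58 and no gene without overlap. Ttr, the transthyretin made by the choroid plexus, stood at 96.2, 877 and 654 FPKM in CAMK and at 2284, 295 and 1120.4 in WT. The median was -0.25 without CAMK replicate 1 or without WT replicate 1, -0.91 without CAMK replicate 2 and -1.01 without WT replicate 2. Of 13 thalamic genes 10 were above 0 (median 0.14), 3 of them higher without overlap, against 9.35% of all genes. Tcf7l2, a transcription factor of thalamic neurons, stood at 1.30, 23.0 and 15.8 FPKM in CAMK and at 1.04, 1.77 and 1.65 in WT. CAMK replicate 1 was at the WT level and CAMK replicates 2 and 3 were above it, and the thalamic median was 0.67 without CAMK replicate 1, 0.09 without CAMK replicate 3, 0.26 without WT replicate 1 and 0.23 without WT replicate 2. Of the midbrain and hindbrain list no gene passed the filter.

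Markers of peripheral tissue were nearly all lower in CAMK. The list for neural crest, muscle and cartilage had 7 of 8 tested members below 0 (median -0.41). Of these, 4 were lower without overlap, against 8.76% of all genes. The list's summed FPKM was 18.0 to 19.2 in CAMK and 28.1 to 36.5 in WT. It had 2 called members, both lower, with Hand2 among them. Ret, the receptor of glial-derived neurotrophic factor, stood at 1.98, 3.40 and 3.51 FPKM in CAMK and at 6.35, 6.71 and 6.96 in WT (limma adjusted p = 0.0767, and 0.0455 with the block). Of the muscle and cartilage genes tested, Acta1 and Prrx1 overlapped between the groups, and Col2a1 stood at 0.92 to 1.10 FPKM in CAMK and at 1.14 to 1.43 in WT. The median was -0.18 without WT replicate 1 and -0.61 without WT replicate 2. How far tissue from outside the hippocampus enters the genes nearly restricted to WT was not tested. Motile cilia and ependyma genes had 10 of 11 below 0 (median -0.43, and -0.27 without CAMK replicate 1). Of these, 6 were lower without overlap, against 8.76% of all genes. Foxj1, the regulator of motile cilia, stood at 4.14, 6.04 and 4.99 FPKM in CAMK and at 8.47, 7.60 and 8.06 in WT (adjusted p = 0.133).

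Meningeal and fibroblast genes stood higher in CAMK. Of 15 tested, 14 were above 0 (median 0.47), and 9 were higher without overlap, against 9.35% of all genes. Their summed FPKM was 99.4 to 110 in CAMK and 59.2 to 89.3 in WT. Col1a2, a chain of type I collagen, stood at 13.2, 13.4 and 14.0 FPKM in CAMK and at 9.39, 7.33 and 8.16 in WT (log2 difference 0.65, limma adjusted p = 0.0561, 0.0460 with the block and 0.0250 without WT replicate 1). Ogn, the small proteoglycan osteoglycin, stood at 4.83, 4.98 and 5.11 FPKM in CAMK and at 3.17, 1.92 and 2.32 in WT (adjusted p = 0.0867). CX3CL1-ct libraries reached 27.7 FPKM for Col1a2 and 8.86 for Ogn, above every CAMK library. The part of meningeal tissue in the genes that rose was not tested.

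**Figure D4:**
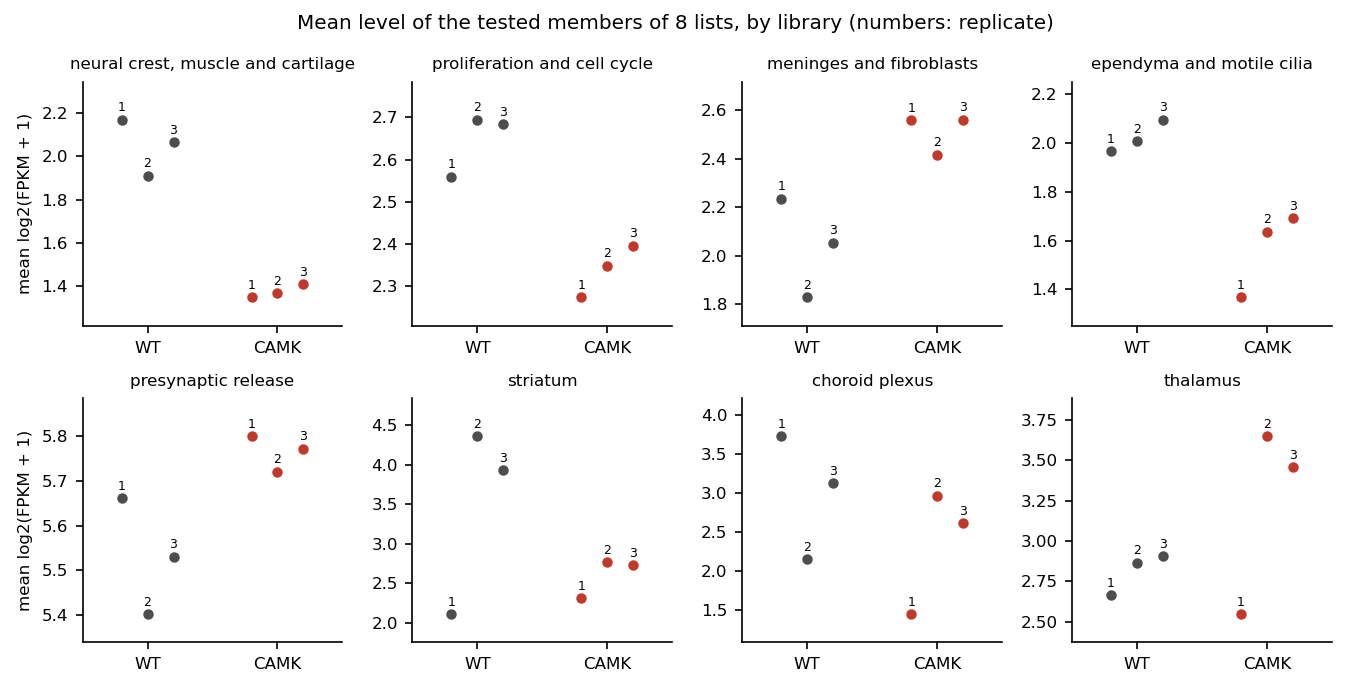
Mean log2(FPKM + 1) of the tested members (y axis) of 8 lists in each of the 3 WT and 3 CAMK libraries (x axis, numbered by replicate). For neural crest, proliferation, meninges, cilia and presynaptic genes the groups stand apart, while for striatum, choroid plexus and thalamus single libraries stand apart from their group.

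Synaptic genes were mostly a little higher in CAMK. Of 18 genes of presynaptic release 15 were above 0 (median 0.23). Without overlap 10 were higher and none lower, against 9.35% and 8.76% of all genes. None passed the threshold, and 3 did with the replicate block. Bsn, the scaffold protein bassoon of the active zone, stood at 12.4, 12.2 and 11.6 FPKM in CAMK and at 9.80, 8.91 and 8.74 in WT. All CAMK libraries were above all WT libraries (log2 difference 0.36, limma adjusted p = 0.141, and 0.0625 with the block). Of 28 genes of the glutamatergic synapse 22 were above 0 (median 0.12). The median ranged from 0.06 without CAMK replicate 1 to 0.19 without CAMK replicate 2. It was 0.07 without WT replicate 2 and 0.18 without WT replicate 1. Without overlap 9 of the 28 were higher and 2 lower, against the same shares of all genes. Gria1, an AMPA receptor subunit, was among the 2 that were lower, at 71.5, 66.2 and 71.8 FPKM in CAMK and 96.3, 92.5 and 98.8 in WT (log2 difference -0.45, limma adjusted p = 0.0568, and 0.0244 with the block).

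The family of the driver's gene did not follow Camk2a. Of 20 CaM kinase and calcineurin genes 16 were above 0 (median 0.14), and none passed the threshold. Camk2b, the β subunit of the same kinase, stood at 129, 91.5 and 109 FPKM in CAMK and at 128, 94.0 and 107 in WT. Its groups overlapped throughout. Ppp3ca, the catalytic subunit of calcineurin, stood at 162, 149 and 157 FPKM in CAMK and at 209, 202 and 223 in WT (log2 difference -0.44, limma adjusted p = 0.0823, and 0.0344 with the block). Camk2a and Ppp3ca were the 2 members called lower with the block, and Camk1 and Camk2d the 2 called higher.

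Lists of response and signalling had few members past the threshold. Immediate early genes had 13 of 18 below 0 (median -0.26, 4 lower without overlap, against 8.76% of all genes). The medians of the apoptosis and p53 list (0.04), the unfolded protein response (-0.03), microglia (-0.02), TGF-β and Smad (0.03), BMP (0.02), Wnt (0.03), Notch (-0.10) and insulin-like growth factors (0.00) lay close to that of all genes, and none of their members passed the threshold. With the replicate block Wnt7b of the Wnt list was called higher (block adjusted p = 0.0385, limma). In the inflammation and interferon list Ifitm3 was the 1 called member of 7 tested, and H2-K1, which presents antigen, had a log2 difference of -0.76 (limma adjusted p = 0.0619, and 0.0491 with the block). Haemoglobin and other erythroid genes were below 0 for 6 of 6 (median -0.42, -0.18 without WT replicate 2, -0.27 without CAMK replicate 2 and -0.74 without WT replicate 1), 1 of them without overlap. GABAergic interneuron genes had 15 of 20 below 0 (median -0.18, -0.12 without CAMK replicate 1 and -0.05 without WT replicate 2). Oligodendrocyte genes (median -0.02) and endothelial and mural genes (0.10) had no member past the threshold, and with the replicate block Vtn of the latter list, the gene of vitronectin, was called higher (block adjusted p = 0.0233, limma).

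**Figure D5:**
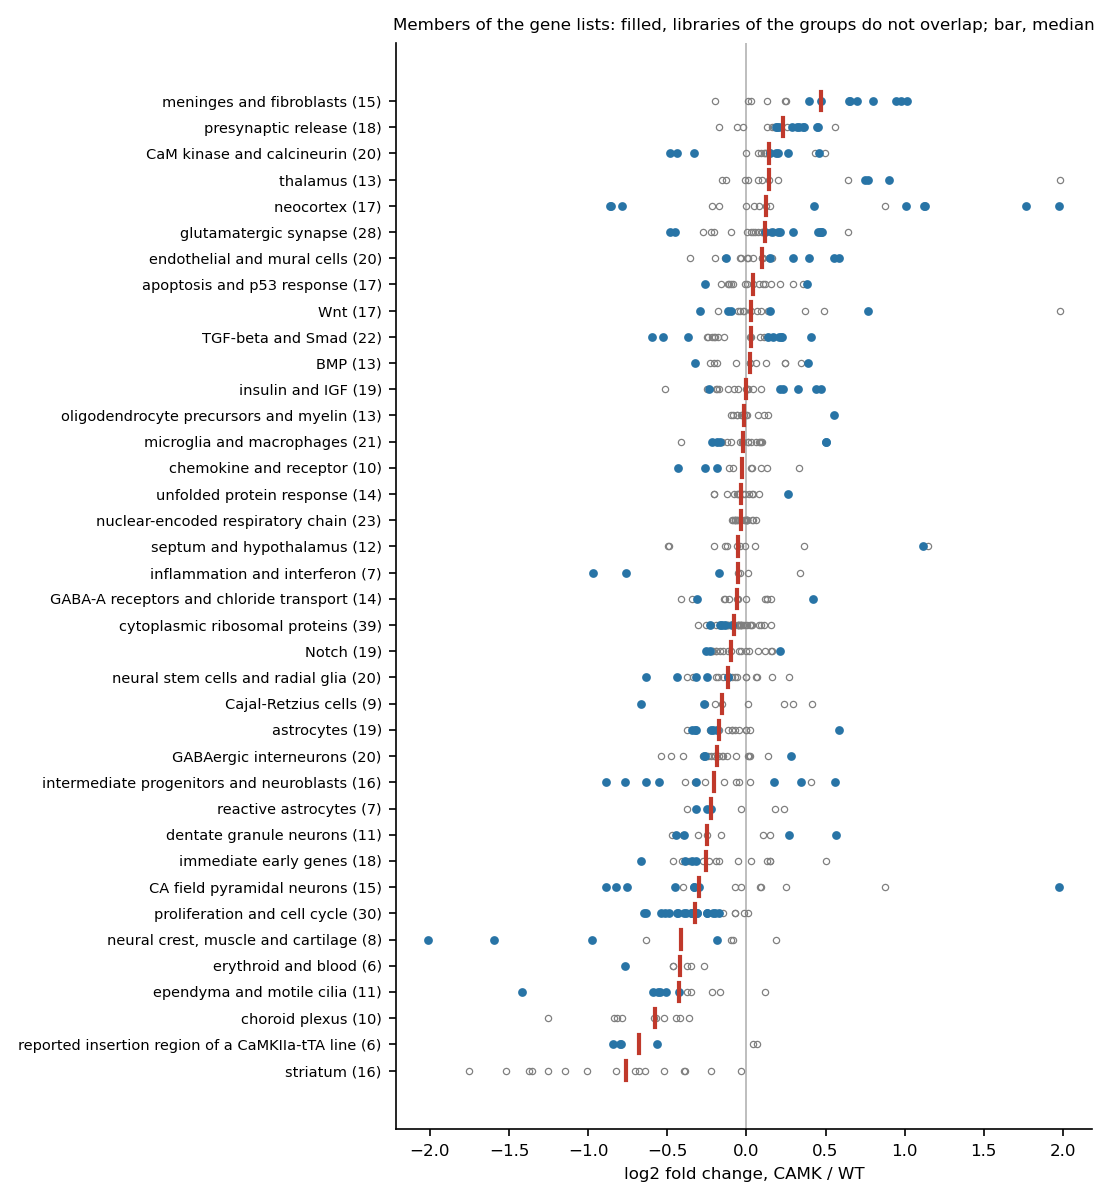
Log2 fold change of CAMK over WT (x axis) for each tested member of the gene lists (y axis, number of members in brackets), filled where the libraries of both groups do not overlap, with a bar at the median. The list medians run from -0.76 for striatum to 0.47 for meninges and fibroblasts.

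The 6 CX3CL1-ct libraries, which carry the driver as well, were compared with CAMK in a fit over all 12 libraries. In that fit 9 genes differed between CX3CL1-ct and CAMK (0.0571%), and 93 between CX3CL1-ct and WT (0.59%), a comparison that shares its WT libraries with that of CAMK and WT. Of the 66 genes that differed between CAMK and WT, 23 had all 6 CX3CL1-ct libraries nearer to the CAMK mean and 2, Snord34 and Gm24729, had none. The 66 were chosen by their CAMK and WT values, and the share over all genes tested was not counted. CX3CL1-ct replicates 1 to 3 were close for Eomes (11.6, 11.4 and 10.9 FPKM) and Zbtb20 (38.1, 38.5 and 38.2), though not for Snord49a. For Zbtb20 replicates 4 to 6 stood at 57.2, 24.7 and 43.1. The labels do not say that replicates 1 to 3 are separate animals, so counts out of 6 may rest on fewer independent libraries. Esyt2 and Ptprn2 differed between CX3CL1-ct and CAMK by 0.02 and -0.12 on the log2 scale, and Hand2 by 0.33.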

How the data were processed

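Total RNA of hippocampus was depleted of ribosomal RNA and sequenced from both ends with a stranded kit, per the labels' protocols. The authors deposited FPKM per gene, and the submitters' processing notes name TopHat, Bowtie, Cufflinks, Cuffdiff and build mm10, without versions. Their scaling between libraries and the use of strand are not given in the sources used here. Groups and replicate numbers come from the labels. Values were taken as log2(FPKM + 1), so fold changes of low genes are understated. limma 3.58.1 in R 4.3.3 (eBayes with trend) gave two-sided p-values over 15760 genes, adjusted by Benjamini-Hochberg, with a threshold of 0.05. The steps were tested on simulated data. Depth was estimated with fragments of 180 nt, and its precision cannot be given without counts.

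A CAMK and a WT library with the same number deviated together from their groups' means, with correlations of 0.317, 0.266 and 0.153 across tested genes for numbers 1, 2 and 3, and of 0.306, 0.249 and 0.145 off chromosomes X and Y, while the labels do not say what a number shares. Values with the number as a block are given where they change a call.

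The comparison, the gene lists and their members were chosen with earlier results of these data known. Named by rule were Cx3cl1, Cx3cr1, Camk2a, the genes of the reported insertion region, the 12 called genes that rose most and the 12 that fell most (groups apart, mean of at least 2 FPKM in the higher group, no predicted, small RNA or pseudogenes), up to 4 called or 2 other separated members per list, and called genes with a group at 0. Xist, Ddx3y, 5033428I22Rik, Gm17807, Zfp386, Rapgef5, Inf2, Snora28, Stmn1, Tubb3, Wnt7b, Vtn, Mki67, Prox1, Nr3c2, Cux2, Crym, Penk, Ttr, Tcf7l2, Ret, Acta1, Prrx1, Col2a1, Camk2b, Camk1, Camk2d, H2-K1 and Eid1 were chosen after their values were seen. Annotation came from GENCODE M21, which holds 15685 of the tested genes. Some genes that the rule names are left out.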

Additional observations from a re-analysis of the deposited data

Results flagged for a closer look

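In 3 of the 33 genes looked at, 1 CX3CL1-ct library stood far from the other 5 by Dixon's test (95% critical value). Chance passes it in about 1 of 20 groups of independent libraries, and CX3CL1-ct replicates 1 to 3 may not be independent. Rorb stood at 12.1 FPKM in CX3CL1-ct replicate 6 and at 4.55 to 7.12 in the others. Sdpr stood at 1.78 FPKM in CX3CL1-ct replicate 6 and at 3.02 to 3.42 in the others. Wdr60 stood at 3.05 FPKM in CX3CL1-ct replicate 5 and at 2.00 to 2.39 in the others. Groups of 3 libraries were not examined in this way.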

How the results depend on the processing

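The 66 calls (29 higher, 37 lower) became 39 (19 and 20) with at least 1 FPKM in all 6 libraries, where fewer genes were tested, 285 (188 and 97) with the replicate block, 108 (49 and 59) after rescaling without small RNA genes, 254 (160 and 94) with Xist as a covariate, and 95 with centring, of which 46 were higher. Without 1 library the count ran from 20 to 113 (higher 5 to 49, lower 14 to 64). All 12 libraries in 1 fit gave 69 calls, 35 of them shared, and no filter gave 63, 44 of them shared. The pseudocounts of 0.1 and 0.5, quantile normalization, a robust fit, no trend and leaving out genes with a group at 0 gave 50 to 83.

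The 2 calls within 5 Mb on chromosome 12 were 1 with no filter or no trend, 4 with all 12 libraries or Xist, 5 with the block, and 0 to 2 without 1 library. Camk2a (-0.48) passed with the block (-0.48, adjusted p = 0.0328) and with Xist (-0.53, adjusted p = 0.0290), and ran from -0.57 to -0.40 without 1 library. Cx3cl1 ran from -0.15 to -0.02. The named gene Ube3c turned to -0.00647 with quantile normalization, and Cx3cr1 to -0.0197 without WT replicate 2 (up to 0.23 without another). The number of lists with a median below 0, which was 27, ran from 24 to 28 without 1 library. Of 38 named genes called, 13 were called in all 6 fits without 1 library, most of which passed the filter through 1 group only, and 1 in none, and the block ended no call. The causes were not tested. Without counts, depth limits the genes near 1 FPKM, and an FPKM of 0 cannot be given a limit.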

Other observations

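Eid1, an inhibitor of differentiation that binds EP300, was not called (limma adjusted p = 0.227) although it stood at 0.232, 6.82 and 4.62 FPKM in CAMK and at 134, 9.45 and 64.0 in WT. The groups did not overlap, and WT replicate 2 stood close to CAMK replicate 2. Of the genes within 5 Mb of Esyt2, Snora28 had the highest log2 difference, 2.28, with 0 to 17.0 FPKM in WT and 12.7 to 57.2 in CAMK, and did not pass. Cytoplasmic ribosomal protein genes had 31 of 39 members below 0 with a median of -0.08, and nuclear-encoded respiratory chain genes 16 of 23 with a median of -0.03. Chromosome 13 held 7 called genes of 571 tested (1.23%) and chromosome 17 held 0 of 671, against 0.419% of all genes. Chromosome 8 held 5 of 834, all lower, 3 of them next to each other at Hand2.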
